A study of Mus musculus with 8 samples.

Results

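Enzymes that build the keratan sulfate and chondroitin sulfate chains of the mouse cornea were compared between mice that overexpress TGF-beta (TGFB) and their wildtype littermates. The set holds 8 genes, Chst1, Chst2, Chst3, Chst5, B3gnt7, Xylt1, Chsy1 and Ugdh. It was defined as every probe set that the array's annotation assigns to 1 of these symbols alone, which gave 9 of 45101 probe sets. They cover 7 of the 8 genes, with 3 probe sets for Chst2 and 1 each for the other 6 genes. Xylt1 was not analysed here. RNA of the cornea was hybridised to 8 one-colour Affymetrix arrays, 4 per group, and both groups share the extraction reagent, TRizol. The labels give neither the TGF-beta isoform, the promoter or cell type that drives it, the strain nor the age. The labels do not state whether the arrays of a group come from separate animals, and the p-values below reflect array-to-array spread that may be technical.

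Keratan sulfate and chondroitin sulfate are long sugar chains attached to matrix core proteins. Keratan sulfate is carried in the corneal stroma by small leucine-rich proteoglycans such as keratocan and lumican, and its sulfation is needed for a regular collagen lattice and a transparent cornea. Chondroitin and dermatan sulfate are carried there by decorin, and TGF-beta is known in cultured fibroblasts and keratocytes as a stimulus of chondroitin sulfate proteoglycan synthesis. A xylosyltransferase such as Xylt1 starts a chondroitin chain on the core protein, synthases extend it, and sulfotransferases modify both kinds of chain.

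No enzyme of the set differed past the threshold between TGFB and wildtype corneas. The largest differences were a lower mean of the keratan sulfate sulfotransferases Chst5 and Chst1 and a higher mean of the chondroitin synthase Chsy1 in TGFB corneas. The groups differed least in Ugdh and Chst2 1422758_at, at -0.012 for each on the log2 scale. Differences are TGFB minus wildtype in log2(signal + 16), a scale that understates the change of dim probe sets, and the threshold is a limma p under 0.05 after Benjamini-Hochberg adjustment over 45037 probe sets.

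The upstream sequences of the 3 enzymes with the largest differences are shown, since TGF-beta signals reach genes through SMAD proteins, which bind short elements that include CAGAC. Each run is the 250 bases before the annotated start in RefSeq (GRCm38.p6), written 5′ to 3′ along the gene. Chst1 lies on the plus strand (chr2:92600867-92601116), Chst5 on the minus strand (chr8:111910200-111910449) and Chsy1 on the plus strand (chr7:66109242-66109491). Capitals mark CAGAC or GTCTG, its reverse complement.
Chst1: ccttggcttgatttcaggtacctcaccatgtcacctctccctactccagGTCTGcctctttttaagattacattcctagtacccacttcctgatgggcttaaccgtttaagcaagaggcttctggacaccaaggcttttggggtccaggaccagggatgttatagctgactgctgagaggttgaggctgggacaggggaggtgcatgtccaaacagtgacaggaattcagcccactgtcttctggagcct
Chst5: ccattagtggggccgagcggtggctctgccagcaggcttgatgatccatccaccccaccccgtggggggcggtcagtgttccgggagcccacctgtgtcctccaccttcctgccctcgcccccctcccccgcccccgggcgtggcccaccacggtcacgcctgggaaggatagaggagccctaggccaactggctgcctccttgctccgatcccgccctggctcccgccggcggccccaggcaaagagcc
Chsy1: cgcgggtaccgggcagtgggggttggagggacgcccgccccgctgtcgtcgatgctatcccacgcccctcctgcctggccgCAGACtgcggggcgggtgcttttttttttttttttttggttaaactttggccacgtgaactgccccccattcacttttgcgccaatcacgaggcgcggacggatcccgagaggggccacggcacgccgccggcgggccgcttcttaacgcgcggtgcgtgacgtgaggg
The letters occurred once in Chst1 and once in Chsy1, and were not in the Chst5 window. Of the 7 enzymes with a sequence here, 3 held the element, the other being Chst2, and 42.2% of all 32851 promoters of the same length held it too. A match to 5 letters is a description of the sequence, not a binding site.

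Depth on these arrays is limited by their number and by dim probe sets. Each array has a trimmed mean signal of 150, and median signals ran from 26.3 to 34.4. Chst2 1442904_at lay below a signal of 16 on all 8 arrays, Chst3 on 6 and B3gnt7 on 2. Of the 9 probe sets, 7 passed a filter at the 40th percentile of mean signal, and Chst3 and Chst2 1442904_at did not. Wildtype 4 had the highest signal of the 8 arrays in 6 of the 9 probe sets. It also had the highest 3'/5' signal ratio of Gapdh, which rises with RNA decay, at 6.41 against 2.19 to 4.31 on the other arrays. The part of RNA decay in the values of wildtype 4 was not tested.

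The cornea was recognisable by its markers in both groups, and markers of neighbouring tissues differed widely between arrays. The mean of 8 keratocyte markers ran from 9.09 to 9.93 in TGFB and from 10.00 to 11.11 in wildtype arrays, with 8 of 8 lower in mean in TGFB. The 8 corneal epithelial markers gave 9.88 to 10.58 against 9.14 to 10.46, with 5 higher and 3 lower in mean in TGFB. On TGFB arrays the mean of the 8 pigment cell markers spanned 7.60 to 9.28, against 9.22 to 11.55 on wildtype arrays, and 8 of 8 were lower in mean in TGFB. The 7 cornified epidermis markers gave 12.22, 12.59 and 11.45 in TGFB 1, TGFB 2 and wildtype 2 and 6.24 to 7.20 on the other arrays. All 7 were higher in mean in TGFB. Lens markers ran from 4.61 to 8.97 in TGFB and from 5.07 to 9.89 in wildtype arrays, with 8 of 8 lower in mean in TGFB. The means were also lower in TGFB for 7 of 7 conjunctival markers (6.57 to 7.79 against 7.72 to 8.45), 8 of 8 of skeletal muscle (8.85 to 9.67 against 9.17 to 11.12), 6 of 6 of corneal endothelium (8.19 to 9.07 against 8.58 to 9.54) and 6 of 7 of retina (4.76 to 5.13 against 5.06 to 7.35). They were lower for 5 of 6 markers of blood endothelium (6.96 to 7.25 against 6.85 to 7.64), 3 of 4 of nerve (7.83 to 8.28 against 7.42 to 9.02) and 2 of 6 of leukocytes (6.58 to 7.07 against 6.73 to 7.27). Markers of cartilage, a tissue rich in chondroitin sulfate, were lower for 3 of 11 (6.03 to 6.78 against 5.85 to 6.72). Muc5ac, Prph2, Matn1 and Cd3e were below a signal of 16 on every array. In whole corneas, fewer cells of a type and less RNA per cell cannot be told apart.

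**Figure D1:**
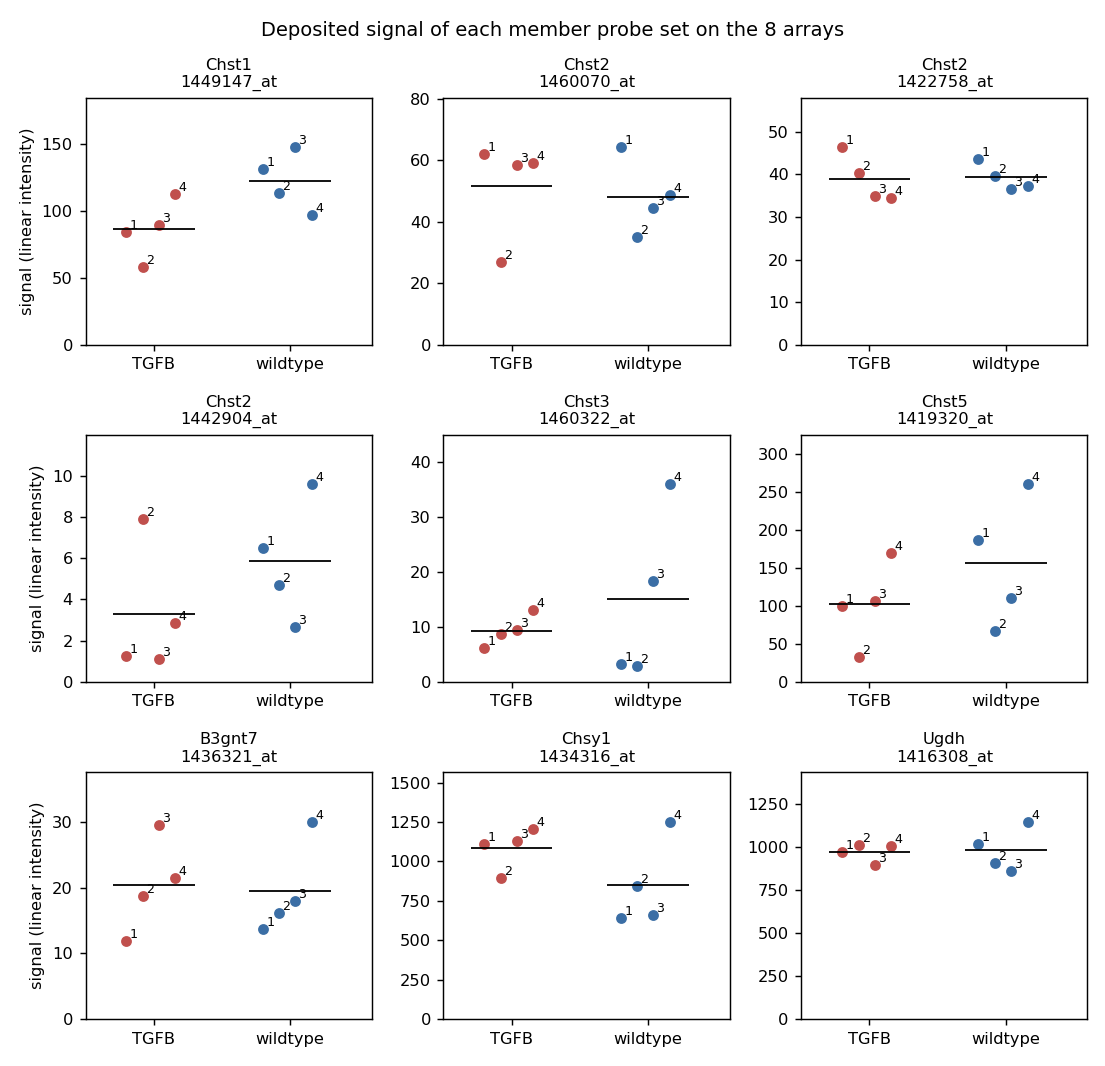
Deposited signal (linear intensity, axis from 0) of the 9 probe sets on the 4 TGFB arrays (red) and the 4 wildtype arrays (blue). Points carry the array number within the group and the black line is the group mean. The groups overlap in every panel, and wildtype 4 is the highest point in 6 of the 9.

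Among the enzymes of keratan sulfate, Chst1 had the smallest p. Chst1 transfers sulfate to the galactose units of keratan sulfate. Its signals were 84.3, 58.3, 89.0 and 112.5 in TGFB 1 to 4 and 131, 113.1, 147 and 97.0 in wildtype 1 to 4. The groups overlapped only through wildtype 4, which lay below TGFB 4. The mean signal was 86.0 ± 22.2 in TGFB and 122 ± 21.8 in wildtype corneas (SD, n = 4 each). The log2 difference was -0.45 (SE 0.20, 95% interval -0.89 to -0.0092), with an unadjusted limma p of 0.0463 and an adjusted p of 0.845. Chst1 was the 1 probe set of 9 with an unadjusted limma p under 0.05, a share to be read beside 5.86% of all probe sets. Without wildtype 4 the difference was -0.54 (adjusted p = 0.369), and without TGFB 2 it was -0.31. With the mean of the pigment markers as a covariate it was -0.13 (SE 0.28). The pigment mean was itself lower in TGFB by a difference of -1.79, so that group and covariate overlap.

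Chst5 had the largest difference in size and also the largest error. Chst5 is the sulfotransferase that in the mouse cornea sulfates the N-acetylglucosamine units of keratan sulfate, and loss of the corresponding human enzyme causes macular corneal dystrophy. Its signals were 100.5, 33.2, 106 and 169.6 in TGFB 1 to 4 and 187, 67.2, 110.2 and 260.5 in wildtype 1 to 4. Both groups spread widely, and the wildtype arrays 2 and 3 lay within the range of the TGFB arrays. The mean signal was 102 ± 55.8 in TGFB and 156 ± 85.4 in wildtype corneas (SD, n = 4 each). The log2 difference was -0.54 (SE 0.46, 95% interval -1.58 to 0.49, limma adjusted p = 0.920). It moved with single arrays, from -0.85 without wildtype 2 and -0.81 without TGFB 4 to -0.27 without wildtype 4 and -0.17 without TGFB 2. With the cornified epidermis marker mean as a covariate it was -0.20 (SE 0.33), and with array weights -0.12 (SE 0.42). Without wildtype 1 and wildtype 4 it was 0.060, on the other side of 0. Kera, the core protein keratocan that carries keratan sulfate, was set beside it after its values were seen. Its signals were 2531, 2073, 3307 and 4154 in TGFB 1 to 4 and 4329, 2538, 3815 and 8110 in wildtype 1 to 4. Both genes had their lowest signal in TGFB 2 and their highest in wildtype 4. The other core proteins were also looked at after their values were seen. Lumican (Lum) was lowest in TGFB 1 (3728) and highest in wildtype 4 (8788). Fmod, Ogn, Dcn and Bgn were highest in wildtype 4 as well, while Prelp, Omd, Vcan, Acan, Bcan, Ncan, Cspg4 and Ptprz1 were not.

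Chst2, which also sulfates N-acetylglucosamine and acts outside the cornea on selectin ligands, was read by 3 probe sets that did not move together. Chst2 1460070_at, the brightest, gave signals of 62.0, 26.9, 58.5 and 59.1 in TGFB 1 to 4 and 64.3, 34.9, 44.4 and 48.8 in wildtype 1 to 4. TGFB 2 lay apart from the other TGFB arrays, and those 3 lay within the wildtype range. The probe set gave a log2 difference of 0.057 (SE 0.23, 95% interval -0.46 to 0.57). Chst2 1422758_at ran from 34.3 to 46.4 in TGFB and from 36.6 to 43.6 in wildtype arrays, with a log2 difference of -0.012 (SE 0.13, 95% interval -0.30 to 0.28). Chst2 1442904_at was dim throughout, at 1.12 to 7.93 and 2.64 to 9.59, and gave -0.18 (SE 0.16). The limma adjusted p of the 3 Chst2 probe sets lay between 0.920 and 0.994.

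B3gnt7 adds N-acetylglucosamine as the keratan sulfate chain grows. B3gnt7 was dim, with signals of 11.9, 18.8, 29.6 and 21.5 in TGFB 1 to 4 and 13.8, 16.1, 18.0 and 30.1 in wildtype 1 to 4. The groups covered nearly the same range. B3gnt7 gave a log2 difference of 0.037 (SE 0.20, 95% interval -0.41 to 0.48, limma adjusted p = 0.989).

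Chsy1 had a higher mean in TGFB corneas, as did 4 of the 6 chondroitin chain enzymes measured here, Chsy1 included. Chsy1 is a chondroitin synthase, which extends the chain by adding its sugars in alternation. Its signals were 1109.7, 893, 1127 and 1205 in TGFB 1 to 4 and 640.1, 847, 662 and 1253 in wildtype 1 to 4. All TGFB arrays lay above wildtype 1, 2 and 3, while wildtype 4 lay above every TGFB array. The mean signal was 1084 ± 133 in TGFB and 851 ± 284 in wildtype corneas (SD, n = 4 each). The log2 difference was 0.39 (SE 0.22, 95% interval -0.11 to 0.89, limma adjusted p = 0.892). Without wildtype 4 it was 0.59 (SE 0.17), with an unadjusted limma p of 0.00706 that did not pass after adjustment (adjusted p = 0.279). In that fit 5249 of 45037 probe sets had an unadjusted limma p under 0.05, beside 2641 with all arrays. With the pigment mean as a covariate the difference was -0.048 (SE 0.29). As for Chst1, group and this covariate overlap, so their parts cannot be told apart.

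Chst3 and Ugdh did not separate the groups. Chst3 transfers sulfate to the N-acetylgalactosamine of chondroitin, and its signals were 6.12, 8.65, 9.37 and 13.0 in TGFB 1 to 4 and 3.24, 2.89, 18.4 and 35.9 in wildtype 1 to 4. The wildtype arrays held both the lowest and the highest values. Most lay below 16, where the scale used compresses differences, and the log2 difference was -0.17 (SE 0.31, limma adjusted p = 0.960). Ugdh makes UDP-glucuronic acid, the precursor of chondroitin, heparan sulfate and hyaluronan. Its signals were 973, 1013, 897 and 1005 in TGFB 1 to 4 and 1018, 908, 865 and 1150.4 in wildtype 1 to 4. The TGFB arrays all lay within the range of the wildtype arrays. Ugdh had a log2 difference of -0.012 (SE 0.14, limma adjusted p = 0.994), and its 95% interval of -0.32 to 0.30 allows a level up to 1.23-fold higher or 19.9% lower.

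**Figure D2:**
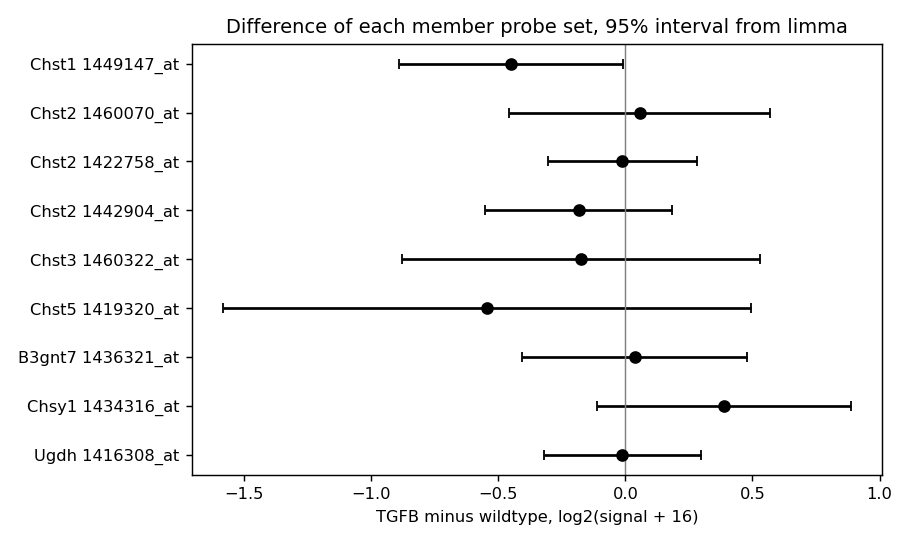
Difference of each of the 9 probe sets between TGFB and wildtype arrays in log2(signal + 16). Points are limma estimates and bars are 95% intervals, unadjusted for the number of probe sets. The interval of Chst1 (-0.89 to -0.0092) ends just below 0 and the other 8 include 0.

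Across the 9 probe sets, 0 were called higher and 0 lower with limma, as were 0% of all 45037 probe sets. At an unadjusted limma p under 0.05 there were 1218 higher and 1423 lower probe sets among them. The mean was higher in TGFB for 3 members and lower for 6, beside 48.4% lower over all probe sets. The median difference of the members was -0.012 and that of all probe sets 0.0090. The groups did not overlap for 0 of the 9 members, beside 3.28% of all probe sets. The SEs of the members ran from 0.13 to 0.46, around a median of 0.20 over all probe sets. In simulations of this comparison over 45037 probe sets, the fit recovered 39.0% of 2-fold and 86.5% of 4-fold changes. These are changes on the fitted scale, and a 2-fold change in a single enzyme could be missed. Since that scale understates the change of dim probe sets, the shares may be too high for dim members such as Chst3 and B3gnt7. Whether the shares hold for a single changed enzyme, or with effects shared by the probe sets of an array, was not tested.

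The wider pathway was described by role, with each gene read by its brightest probe set. Of 73 listed genes, 68 were measured, and limma called 0 higher and 0 lower. At an unadjusted limma p under 0.05 there was 1 higher and there were 6 lower genes, a count to be read beside 7.23% of all 18193 genes. The means were lower in 38 of the 68, beside 52.6% of all genes, and the median difference was -0.029, beside -0.014 over all genes. Adjusted p ran from 0.834 to 0.999 over the 68 genes. The genes other than members are given as values only.

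Papss2, which makes the sulfate donor PAPS that every sulfotransferase uses, had the smallest p of the pathway genes. Its signals were 174, 168, 199 and 234 in TGFB 1 to 4 and 411, 300.4, 301 and 232 in wildtype 1 to 4. Wildtype 4 fell within the TGFB range and the other wildtype arrays lay above it. The log2 difference was -0.63 (SE 0.19), with an unadjusted limma p of 0.00865 and an adjusted p of 0.834. Papss1, which makes the same donor, was added after its values were seen. Its mean signal was 1026 in TGFB and 1149.5 in wildtype corneas, beside 193 and 311 for Papss2. The Papss1 difference was -0.13 (SE 0.22, limma adjusted p = 0.958). Slc35b2, which carries PAPS into the Golgi, had a difference of -0.24 (SE 0.17). Of the 10 measured genes that supply sugar and sulfate donors, Ugdh included, 8 had lower and 2 higher means in TGFB, with a median of -0.15.

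In keratan sulfate synthesis, 3 of the 4 sulfotransferases had lower means, beside 52.6% of all genes, with a median difference of -0.34. Chst4, the remaining non-member, had -0.23 (SE 0.18) at signals below 16 on all 8 arrays. The median rests in part on this dim gene. The 10 genes of the keratan sulfate chain had a median of 0.020, with 6 higher and 4 lower means. Among them the sialyltransferase St3gal3 ran from 88.5 to 131 in TGFB and from 142 to 164 in wildtype arrays, without overlap, as did 3.94% of all genes. Its log2 difference was -0.37 (SE 0.15), and the fucosyltransferase Fut8 gave -0.25 (SE 0.16).

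The chondroitin chain enzymes went both ways. Of the 6, 4 had higher means, with a median of 0.35, yet Chpf, a partner of the chondroitin synthases in chain polymerisation, had signals of 139, 132, 123 and 118 in TGFB 1 to 4 and 206, 192, 188 and 136 in wildtype 1 to 4. Only wildtype 4 fell within the TGFB range. Chpf had a difference of -0.44 (SE 0.15, limma adjusted p = 0.837). Its relative Chpf2 went the other way, with 0.47 (SE 0.34). In the 6 measured genes of the linkage region that joins the chain to its core protein, the median was -0.0047. The xylose kinase Fam20b gave 0.31 (SE 0.22) and the galactosyltransferase B3galt6 -0.082 (SE 0.14). The 10 sulfotransferases and epimerases of chondroitin and dermatan sulfate, Chst3 included, had a median of 0.070. Chst7 gave -0.36 (SE 0.25), and Chst13 gave 0.21 (SE 0.19) at signals below 16 on all 8 arrays.

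Of the 8 measured genes listed for degradation of these chains, 7 had lower means, beside 52.6% of all genes, with a median of -0.22. The list also holds an activator of sulfatases, Sumf1, named for its role and not its values. Hexa, the alpha subunit of lysosomal hexosaminidase, ran from 1191 to 1557 in TGFB and from 1401 to 2918 in wildtype arrays, a difference of -0.63 (SE 0.22). The sulfatase Arsb had -0.39 (SE 0.15). The limma adjusted p was 0.837 for both. Pigment markers were lower in TGFB arrays as well (7.60 to 9.28 against 9.22 to 11.55), and their part in these values was not tested. The 14 core proteins had a median of -0.19 and went both ways. Cspg4, a membrane chondroitin sulfate proteoglycan of pericytes, ran from 189 to 254 in TGFB and from 172 to 179.5 in wildtype arrays, without overlap, and had a difference of 0.37 (SE 0.13, limma adjusted p = 0.837). Neurocan (Ncan), a proteoglycan of nervous tissue, had -0.52 (SE 0.24). Dcn and Acan were added after their values were seen. Decorin (Dcn), the other core protein without overlap, ran from 6078 to 6594 on TGFB and from 6764 to 10642.5 on wildtype arrays, a difference of -0.34 (SE 0.16, limma adjusted p = 0.864). Of the 68 pathway genes 3 did not overlap, Cspg4, Dcn and St3gal3, a count to be read beside 3.94% of all genes. Aggrecan (Acan), a chondroitin sulfate proteoglycan of cartilage, had signals of 330.2, 182, 274 and 622 in TGFB 1 to 4 and 46.2, 91.9, 66.7 and 529 in wildtype 1 to 4. Wildtype 4 lay within the TGFB range and the other wildtype arrays lay below it. Its difference of 1.35 (SE 0.64, limma adjusted p = 0.857) was the largest of the 68 genes.

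**Figure D3:**
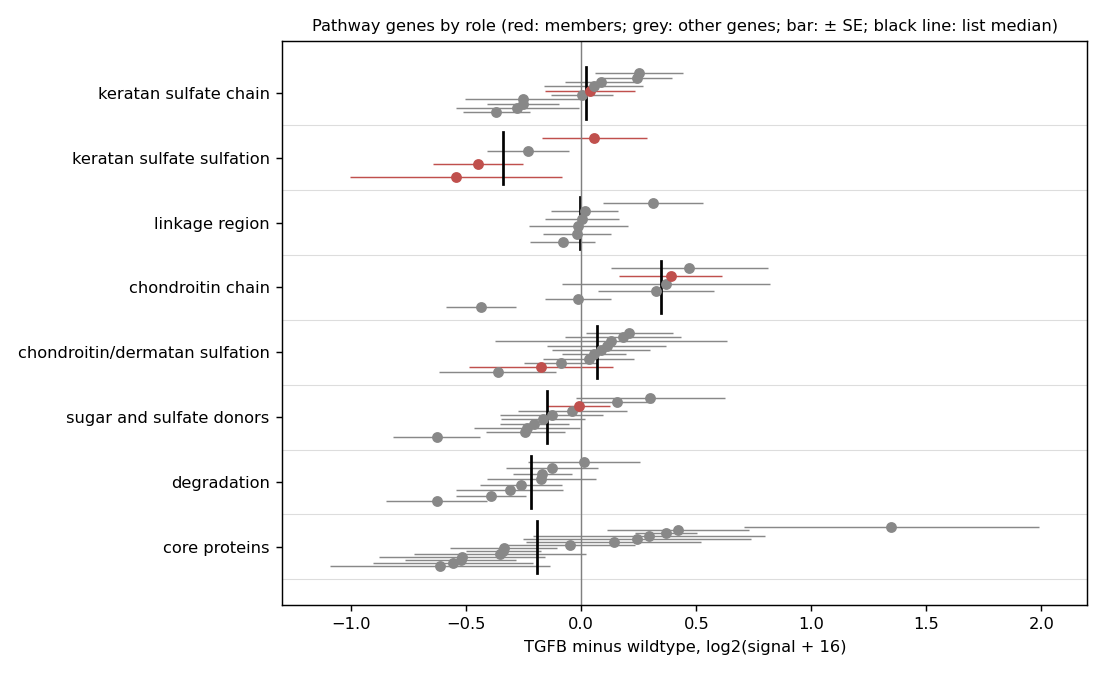
Differences of 68 pathway genes between TGFB and wildtype arrays in log2(signal + 16), grouped by role. Points are limma estimates with bars of ± SE, members in red and other genes in grey, and black lines are list medians, from -0.34 for keratan sulfate sulfation to 0.35 for the chondroitin chain. The keratan sulfate sulfation list holds 4 genes, of which Chst4 lay below a signal of 16 on all 8 arrays.

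The enzymes did not share 1 pattern over the arrays. Over the 21 pairs of the 7 genes, each read by its brightest probe set, Pearson's r over the 8 arrays ran from -0.49 for Chst1 with Chsy1 to 0.74 for Chst2 with Chst5, with a median of 0.31. These values describe 8 arrays whose tissue marker means differ and whose trimmed mean signals are equal. The part of either in r was not tested. The genes most like each enzyme were sought among 13166 genes by Pearson's r over the same arrays, as a description, since so wide a search always returns high values. For Chst1 they were Syn3 (r = 0.993, Spearman's rho 1.00), Pex6 (r = 0.969) and Apc (r = 0.967). All were lower in mean in TGFB, which the search itself favours, since r was taken over both groups. Syn3, which encodes a synapsin, ran from 8.82 to 32.3 in TGFB and from 24.6 to 56.1 in wildtype arrays. For Chst5 they were Cd164 (r = 0.986), the matrix protein gene Thbs4 (r = 0.977) and Dhps (r = 0.968). For Chsy1 they were Ltbp2, a latent TGF-beta binding protein family member (r = 0.985), Aopep (r = 0.985) and Lgr5 (r = 0.981). Ltbp2 signals were 780.1, 512, 695 and 823 in TGFB 1 to 4 and 193, 315, 179 and 997 in wildtype 1 to 4. As with Chsy1, wildtype 4 lay above every TGFB array and the other wildtype arrays lay below them. Ltbp2 was picked for its likeness to Chsy1, so this shared order and direction are no separate result. The Ltbp2 difference was 1.05 (SE 0.47, limma adjusted p = 0.846).

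For the other 4 enzymes the likest genes were Snx7, Tbc1d12 and Desi2 for Chst2 (r from 0.940 to 0.953), and Tsc22d1, 0610040B10Rik and Hspa8 for Chst3 (r from 0.955 to 0.968). Styxl1, Snrpe and Rit1 were closest to B3gnt7 (r from 0.964 to 0.976), and H2-DMa, Ano6 and Lst1 to Ugdh (r from 0.932 to 0.981). Without the 2 arrays farthest from each enzyme's median, r of these 21 genes ran from 0.785 to 0.985. The arrays kept were part of the search, so these values are no separate check.

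**Figure D4:**
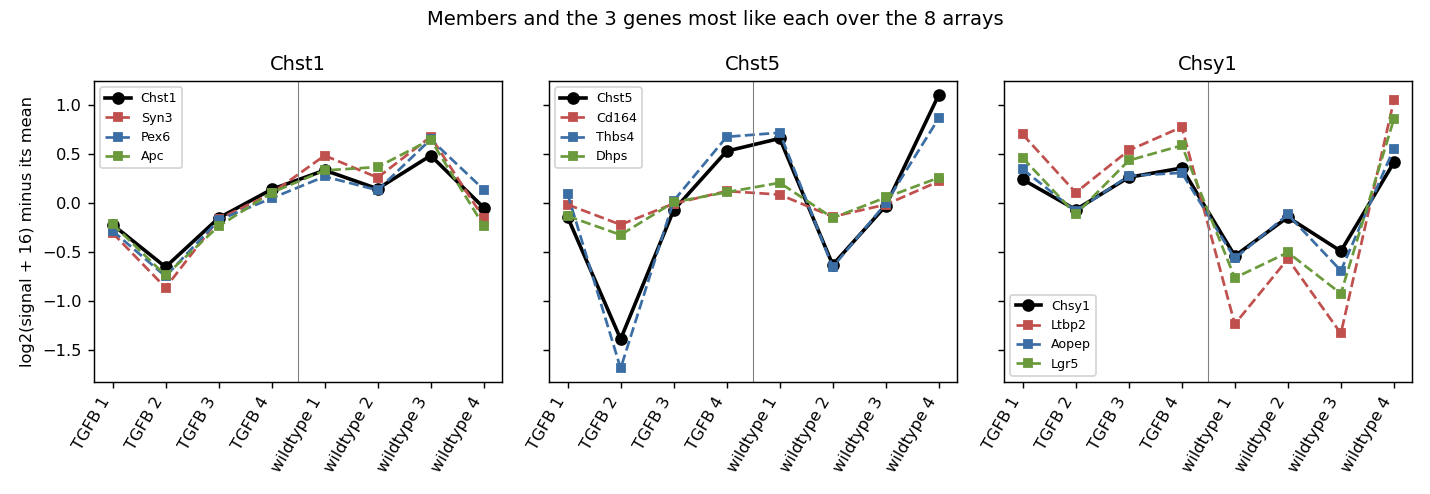
Values of Chst1, Chst5 and Chsy1 (black) and of the 3 genes most like each (dashed) on the 8 arrays, as log2(signal + 16) minus the gene's mean. The grey line parts TGFB from wildtype arrays. Chst1 is lowest in TGFB 2, Chst5 is lowest in TGFB 2 and highest in wildtype 4, and Chsy1 is highest in wildtype 4.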

How the data were processed

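Cornea RNA of 4 TGFB and 4 wildtype arrays was compared. The authors deposited 1 table of linear probe set intensities; how they were made is not stated in the sources, and their equal 2% trimmed means are what global scaling gives. No further normalization was applied. After 64 control probe sets were left out, log2(signal + 16) of 45037 probe sets was fitted with limma 3.58.1 in R 4.3.3 (lmFit, eBayes, 9.22 total degrees of freedom, two-sided), with Benjamini-Hochberg adjustment. A platform annotation of 2016 named the genes, updated by Entrez ID through RefSeq (GRCm38.p6). The brightest probe set stood for a gene in the lists and in the search for like genes. The fit was tested on simulated data.

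The members and lists were chosen with earlier results of these data known. Named besides members were, per list, the 2 genes with the smallest p and, per member, the 3 likest genes by Pearson's r; other genes are marked as named after their values were seen. Alternatives were other offsets, normalizations, filters, units, variance priors, weights, covariates and arrays left out. Figures were drawn with matplotlib 3.10.9.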

Additional observations from a re-analysis of the deposited data

Results flagged for a closer look

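In 18 groups of 4 arrays (9 probe sets in 2 groups), 1 array stood far from the others of its group. Chst2 1460070_at had a signal of 26.9 in TGFB 2, against 58.5 to 62.0 in the other TGFB arrays. The gap to the nearest array made up 0.924 of the group's range on the log2 scale. Chance flags about 1 in 20 such groups. TGFB 2 also had the lowest signal of the 8 arrays for Chst1 and Chst5, and its cornified epidermis marker mean was the highest of the 8 arrays, at 12.59. The Chst2 1460070_at difference between the groups was 0.18 (SE 0.21) with the cornified marker mean as a covariate and 0.14 (SE 0.21) without TGFB 1, TGFB 2 and wildtype 2, beside 0.057 with all arrays.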

How the results depend on the processing

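In 21 other settings no member and no pathway gene was called. Of 185 member values, 164 kept their direction and 21 changed it, and the smallest adjusted p was 0.279. Filtering at the 40th percentile, 1 probe set per gene, the variance trend and robust eBayes left the differences themselves unchanged. Direction could not change in those settings, and the values kept include theirs. Over all probe sets, limma called 0 higher and 2 lower without wildtype 4, both of Ces1d, and 0 higher and 2 lower without wildtype 1 and wildtype 4, namely Rgr and Ces1d, all named after their values were seen. Fewer arrays enter these fits, and the cause was not tested.

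With single arrays left out, Chst1 ran from -0.57 to -0.31, Chst5 from -0.85 to -0.17, Chsy1 from 0.27 to 0.59, Chst3 from -0.37 to 0.12, B3gnt7 from -0.078 to 0.17, Ugdh from -0.071 to 0.064, and the Chst2 probe sets 1460070_at from -0.047 to 0.26, 1422758_at from -0.074 to 0.029 and 1442904_at from -0.29 to -0.11. Without wildtype 1 and wildtype 4, Chst5 was 0.060, Ugdh 0.13 and Chst2 1422758_at 0.018. With array weights, Chst3 was 0.039 and Ugdh 0.043. With quantile normalization Ugdh was 0.0066, and with the pigment mean, which overlaps with group, as a covariate Chsy1 was -0.048. The unadjusted limma p under 0.05 held for 1631 probe sets with the pigment covariate and for 5249 without wildtype 4, beside 2641 in the reported fit. With an offset of 1 in place of 16, Chst2 1442904_at gave -0.83, at signals between 1.12 and 9.59. No paired analysis was possible because the labels give the groups no shared replicate numbers.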
